A study of Homo sapiens with 20 samples.

Results

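ASGR1 and ASGR2 encode the subunits of the asialoglycoprotein receptor. All skipped exon events of both genes in 3 tables of junction reads were taken, 20 of 59847 events, together with their entries among the 28278 genes of a table on FUBP1 RNA immunoprecipitation (RIP). The genes were chosen because ASGR1 exon 3 had changed after FUBP1 depletion in an earlier look at these data. Values of that contrast are therefore given as a description, with no p, while the other contrasts were tested. ASGR1 had 3 and ASGR2 4 of the 19792 events of the siFUBP1 table, 4 and 5 of the 32990 of the U3 table, and 2 and 2 of the 7065 of the FBL table. All 20 events passed the filter, which asked for 10 or more junction reads per library on average.

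All 20 samples of the series were HepG2 cells, an established human liver cancer line. To deplete FUBP1, a nuclear splicing factor, cells received the siRNA siFUBP1 and were compared with cells given the control siRNA siCtrl2 (3 libraries each, polyadenylated RNA, 48 h). U3, a C/D box small nucleolar RNA, was depleted with the antisense oligonucleotide U3 ASO and compared with GFP ASO (3 libraries each, polyadenylated RNA, 72 h). Fibrillarin (FBL), the methyltransferase that C/D box small nucleolar RNAs guide to 2′-O-methylation sites, was depleted with siFBL and compared with siCtrl (48 h, 2 input and 2 FUBP1 RIP libraries each). The input libraries served for splicing. Each depletion rested on 1 siRNA or ASO in 1 line, and no library was shared between the 3 contrasts.

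Junction reads per library ranged from 2693397 to 4474350 in the siFUBP1 table, from 11249641 to 13321799 in the U3 table and from 910779 to 1142189 in the FBL table. The targeted gene FUBP1 had 1 event in the siFUBP1 table, with 45.2 to 56.1 junction reads per 1e+06 junction reads of the table (junction RPM) in siCtrl2 and 4.08 to 10.1 in siFUBP1. At the FUBP1 event with the most reads in the U3 table, the range was 32.5 to 37.1 in GFP ASO and 22.8 to 26.6 in U3 ASO. FBL had no event in any table, and none of them measures the U3 RNA, so that these depletions could not be checked here. The paper measured both by qPCR. The hepatocyte markers fixed for the check had high mean normalized counts in the RIP table, whose mean may pool RIP with input libraries. The lowest of the 10 was TTR, above 91.2% of the genes with a count above 0 in siCtrl. Of the 10 markers of other cell types, PTPRC and CD3E of leukocytes, the stellate marker DES and the macrophage lectin CLEC10A had mean normalized counts of 8.01, 4.84, 3.04 and 25.8, below the median of 26.9 over genes above 0, as did STAB2 (21.9). The remaining 5 were COL1A1 (33.2), PECAM1 (64.8), VWF (92.8), CD68 (631) and PDGFRB (1003).

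The asialoglycoprotein receptor is an endocytic lectin of the hepatocyte surface. It binds glycoproteins whose glycans have lost their terminal sialic acid and end in galactose or N-acetylgalactosamine, carries them through clathrin-coated pits to endosomes, and recycles. Both subunits are type II membrane proteins, in which a short cytoplasmic tail is followed by a single membrane anchor, a stalk and a C-type lectin domain. Ligands conjugated to N-acetylgalactosamine use the receptor to bring drugs into the liver.

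Both genes lie on the minus strand of chromosome 17 (hg38). In GENCODE release 44, the canonical transcripts ASGR1-201 and ASGR2-207 have 9 exons each and code for 291 and 306 residues. Exons 3 to 8 have the same lengths in both genes (117, 96, 72, 87, 152 and 107 bases). The proteins were identical at 173 of 288 aligned residues (60.1%). Exon 3 codes residues 24 to 63 of ASGR1 and 42 to 81 of ASGR2, identical at 25 of 40 positions. It holds the most hydrophobic stretch of 19 residues of each protein. That stretch spans residues 41 to 59 of ASGR1, with a mean Kyte-Doolittle hydropathy of 3.15 against 0.532 for the next stretch without overlap. In ASGR2 it spans residues 57 to 75, with 2.72 against 0.779. Exon 3 thus carries the membrane anchor of both subunits, and its 117 bases are a whole number of codons, so that its skipping keeps the reading frame. ASGR1-208 and ASGR1-209 join exon 2 to exon 4 and have a coding sequence of 252 codons. None of the 7 ASGR2 transcripts skips it.

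**Figure D1:**
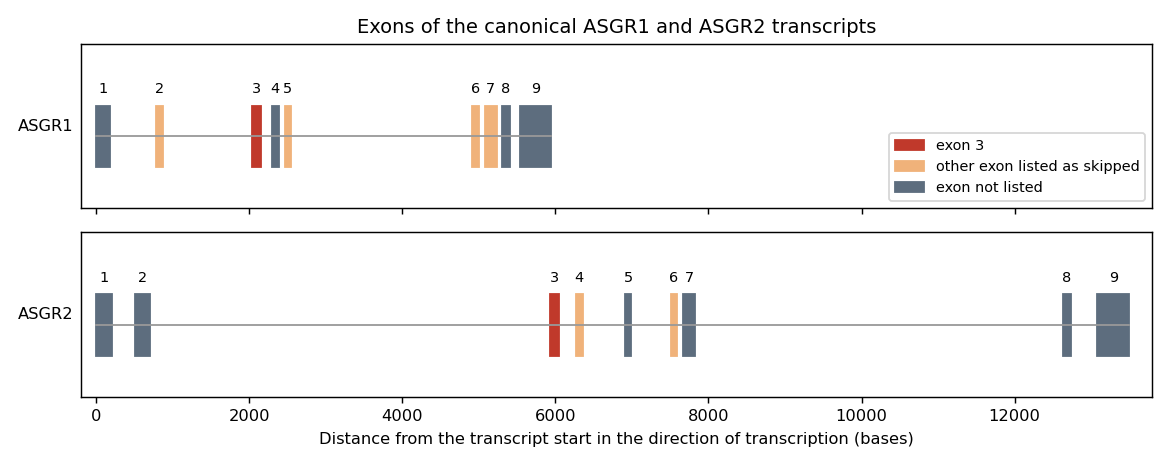
Exons of ASGR1-201 (top) and ASGR2-207 (bottom), drawn to scale from the transcript start in bases along the direction of transcription, with exon numbers above. Exon 3 is red, other exons listed as skipped in any of the 3 tables are orange, and exons not listed are grey. The intron before exon 3 is 1167 bases long in ASGR1 and 5228 in ASGR2.

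Exon 3 is printed for both genes because the results turn on it. Each sequence runs 5′ to 3′ on the gene strand of hg38, with 40 intron bases before the exon and the intron bases after it in lower case. Capitals mark the exon, which is chr17:7177210-7177326 in ASGR1 and chr17:7108772-7108888 in ASGR2.
ASGR1 exon 3: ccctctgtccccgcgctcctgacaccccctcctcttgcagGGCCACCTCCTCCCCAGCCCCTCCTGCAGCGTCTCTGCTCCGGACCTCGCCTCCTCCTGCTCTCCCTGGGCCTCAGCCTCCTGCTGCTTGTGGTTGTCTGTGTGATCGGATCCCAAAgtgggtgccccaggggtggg
ASGR2 exon 3: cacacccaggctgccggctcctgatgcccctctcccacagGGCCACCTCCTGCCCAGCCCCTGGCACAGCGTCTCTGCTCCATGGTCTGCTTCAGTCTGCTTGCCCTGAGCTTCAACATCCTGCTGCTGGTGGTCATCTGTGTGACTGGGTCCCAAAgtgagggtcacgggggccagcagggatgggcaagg

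ASGR2 has alternative 5′ splice sites (donors) around this exon, and no such event of ASGR1 was listed. Exon 3 of ASGR2 ends at a donor that begins with GT (117 bases) or 15 bases, 5 codons, further on at a donor that begins with GC (132 bases, chr17:7108757-7108888). Exon 2 likewise ends at a GT donor or, 57 bases and 19 codons further on, at a GC donor. ASGR2-202 and ASGR2-203 hold the 132-base exon 3. Both choices are shown because the events below are defined by them. Capitals mark the bases between both donors, on the gene strand of hg38 at chr17:7108747-7108783 and chr17:7114107-7114185.
ASGR2 exon 3 long form, end: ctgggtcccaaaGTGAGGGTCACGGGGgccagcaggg
ASGR2 exon 2, end: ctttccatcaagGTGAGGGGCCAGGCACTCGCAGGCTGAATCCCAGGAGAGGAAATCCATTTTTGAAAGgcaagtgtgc

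FUBP1 binds U-rich intron sequence, so the 100 intron bases on each side of exon 3 were compared with those of the 17512 skipped exons of the siFUBP1 table. Before ASGR1 exon 3, T made up 24% of bases, and 16.7% of exons had less. Before ASGR2 exon 3 it made up 21%, and 10.3% of exons had less, the median being 35%. After the exon the share was 15% in ASGR1 (3.52% of exons lower) and 9% at the 117-base form of ASGR2 (0.257% lower), where the median was 32%. The 100 intron bases on each side of exon 3 thus held less T in both genes than beside most exons. The motif TTTT, on the gene strand, stood before ASGR1 exon 3 and in no other window of a listed ASGR1 or ASGR2 exon, while 67.9% of exons had it before and 56.7% after. TTGTT was in none of these windows, against 26.5% before and 19.2% after over all exons. Introns after exon 3 were short, 133 bases in ASGR1 and 214 in ASGR2 against a median of 2287. The intron before it had 1167 bases in ASGR1, and 5228 or 5285 in ASGR2 depending on the exon 2 donor, against a median of 2520.5. These matches describe letters in the genome and not sites of binding.

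To see how the membrane anchor exon of the receptor responds to FUBP1 depletion, inclusion levels were computed per library. The inclusion level is the part of the junction reads of an event that include the exon, after division by the effective length of each form, from 0 to 1. ASGR1 exon 3 was included less in siCtrl2 than in siFUBP1. The siCtrl2 libraries had 813, 1087 and 830 inclusion reads with 70, 114 and 67 skipping reads. The siFUBP1 libraries had 1228, 1120 and 1140 inclusion reads with 4, 23 and 12 skipping reads. Inclusion was 0.867, 0.842 and 0.874 in siCtrl2 and 0.994, 0.965 and 0.982 in siFUBP1. All siFUBP1 libraries lay above all siCtrl2 libraries. The means were 0.861 ± 0.0166 and 0.980 ± 0.0148 (SD, n = 3 each), a change of 0.119. Of all events tested in that table, 83.9% changed by less in absolute value, 5.05% had groups without overlap, and 0.197% (32 of 16213) had an adjusted p under 0.1 in a quasi-binomial test. As a share of reads without scaling by length, the change was 0.0717.

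The same libraries were then compared in junction RPM, which separates the skipped from the included form. Skipping reads of ASGR1 exon 3 were 24.2, 25.5 and 22.0 junction RPM in siCtrl2 and 1.12, 7.23 and 4.46 in siFUBP1. Inclusion reads were 281, 243 and 273 junction RPM in siCtrl2 and 345, 352 and 423 in siFUBP1. The skipped form was lower and the included form higher in every siFUBP1 library than in any siCtrl2 library. The sum of both went from 289 ± 18.8 to 378 ± 43.9 junction RPM (SD, n = 3 per group), 131% of control, without overlap, which 21.5% of events of that table also showed.

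ASGR2 exon 3, the counterpart in the other subunit, varied more between libraries. Its 117-base form, joined to the GT donor of exon 2, had 162, 356 and 209 inclusion reads with 20, 10 and 12 skipping reads in siCtrl2. In siFUBP1 it had 317, 230 and 217 inclusion reads with 6, 14 and 8 skipping reads. Inclusion was 0.819, 0.952 and 0.907 in siCtrl2 and 0.967, 0.902 and 0.938 in siFUBP1, and the groups overlapped. The means were 0.893 ± 0.0675 and 0.936 ± 0.0327 (SD, n = 3 each), a change of 0.0430. Without siCtrl2 library 1, the change was 0.00621. The 132-base form had inclusion of 0.593, 0.886 and 0.851 against 0.894, 0.750 and 0.854, also overlapping, and its change of 0.0557 turned to -0.0359 without the same library. Both forms share their skipping reads and the junction into the exon, so they are not independent. Skipping of ASGR2 exon 3 rested on 6 to 20 reads per library, against 4 to 114 in ASGR1.

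**Figure D2:**
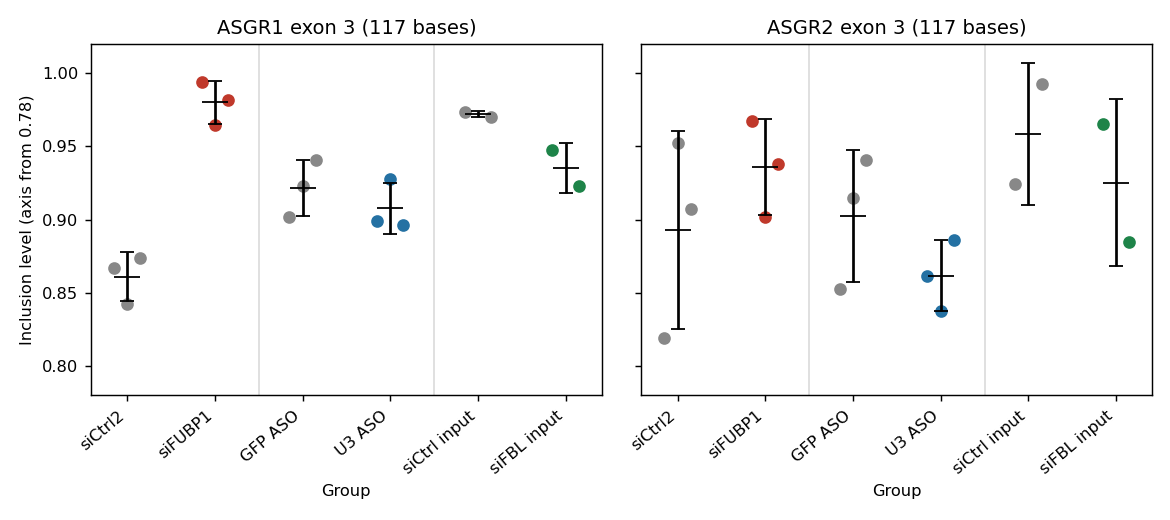
Inclusion level of the 117-base exon 3 of ASGR1 (left) and ASGR2 with the GT donor of exon 2 (right) in each library, on an axis from 0.78. Points are libraries, horizontal marks and bars are means and SD, and vertical lines separate the 3 contrasts; for ASGR1 all siFUBP1 points lie above all siCtrl2 points, whereas for ASGR2 every pair of groups overlaps.

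The other listed exons of both genes were close to full inclusion with siFUBP1 and siCtrl2. ASGR1 exon 5, in the stalk, had 4, 12 and 3 skipping reads beside 487, 602 and 479 inclusion reads in siCtrl2, and 2, 0 and 7 beside 770, 667 and 558 in siFUBP1. Its inclusion was 0.983 ± 0.0105 and 0.993 ± 0.00963. ASGR1 exon 7 had no skipping read in siCtrl2 and 1 in siFUBP1, at a mean of 1056 junction reads per library. ASGR2 exon 4 had no skipping read in siCtrl2 and 3 in siFUBP1, all in library 3. ASGR2 exon 6 had inclusion of 0.997 ± 0.00321 and 0.994 ± 0.0110, with at most 4 skipping reads per library. The groups overlapped at each of these 4 exons, so that of the 7 events only ASGR1 exon 3 had groups without overlap. The level of ASGR2, from junction reads around its exon 4, was 116 ± 5.88 junction RPM in siCtrl2 and 133 ± 19.3 in siFUBP1, 114% of control, with overlap.

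U3 depletion was compared with GFP ASO to see whether loss of a C/D box small nucleolar RNA moved the same exons. ASGR1 exon 3 had 3125, 3582 and 3862 inclusion reads with 190, 168 and 137 skipping reads in GFP ASO. In U3 ASO it had 2999, 2840 and 3121 inclusion reads with 189, 124 and 202 skipping reads. Inclusion was 0.902, 0.923 and 0.940 against 0.899, 0.928 and 0.896, and the groups overlapped. The means were 0.922 ± 0.0192 and 0.908 ± 0.0174 (SD, n = 3 each), and the change of -0.0141 did not pass the test (adjusted p = 0.857, quasi-binomial fit over 30110 events).

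ASGR2 exon 3 had lower means in U3 ASO for both forms, with groups that overlapped. The 117-base form from the GT donor of exon 2 had inclusion of 0.852, 0.915 and 0.941 in GFP ASO and 0.861, 0.838 and 0.886 in U3 ASO. The means were 0.903 ± 0.0453 and 0.862 ± 0.0242, a change of -0.0407 (adjusted p = 0.857). Skipping reads were 61, 34 and 30 against 69, 73 and 66. In junction RPM, skipping reads were 5.42, 2.78 and 2.27 in GFP ASO and 6.11, 6.25 and 4.95 in U3 ASO, and the groups overlapped on this scale and in inclusion, GFP ASO library 1 lying among the U3 ASO libraries. The 132-base form had inclusion of 0.733, 0.805 and 0.866 against 0.690, 0.685 and 0.765, also overlapping. Its means were 0.801 ± 0.0664 and 0.713 ± 0.0448. The change of -0.0881 was larger than either SD but did not pass the quasi-binomial test (adjusted p = 0.857). Of the 9 ASGR1 and ASGR2 events of U3 ASO against GFP ASO, 0 were called by the quasi-binomial test. In that test 0 of them had an unadjusted p under 0.05, against 3.75% of all events. Limma called 0 of the 9, but also 0 of all 30110 events, so its result cannot set them apart. Of all events of that contrast, 0.219% were called by the quasi-binomial test (66 of 30110). Groups without overlap were seen in 6.03%, a pattern that none of the 9 showed. Their adjusted p ranged from 0.805 to 1 over the settings tried.

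Skipping of ASGR2 exon 3 went with the exon 2 donor in the ASO libraries. In the U3 table, the deepest, the 117-base form was also listed from the GC donor of exon 2, with 867, 880 and 1227 inclusion reads in GFP ASO and 933, 872 and 1129 in U3 ASO. Skipping reads from that donor were 0, 0 and 0 against 9, 0 and 2. From the GT donor there were 333 skipping reads over the 6 libraries and from the GC donor 11. Counted without length scaling at the event of the 117-base form, and so without reads of the 132-base form, the GFP ASO libraries together had 0 skipping reads of 2974 junction reads from the GC donor, which allows a share of up to 0.101% (3 reads, counting error only), and 125 of 2252 from the GT donor (5.55%). The U3 ASO libraries had 11 of 2945 from the GC donor (0.374%) and 208 of 2565 from the GT donor (8.11%). In these ASO libraries, exon 3 was thus skipped almost wholly in RNA spliced from the GT donor, which lacks the 19 codons between both donors. The siFUBP1 and FBL contrasts listed no event from the GC donor. Libraries were pooled for these shares, and the reads from inside exon 3 to exon 4 count for both donors.

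**Figure D3:**
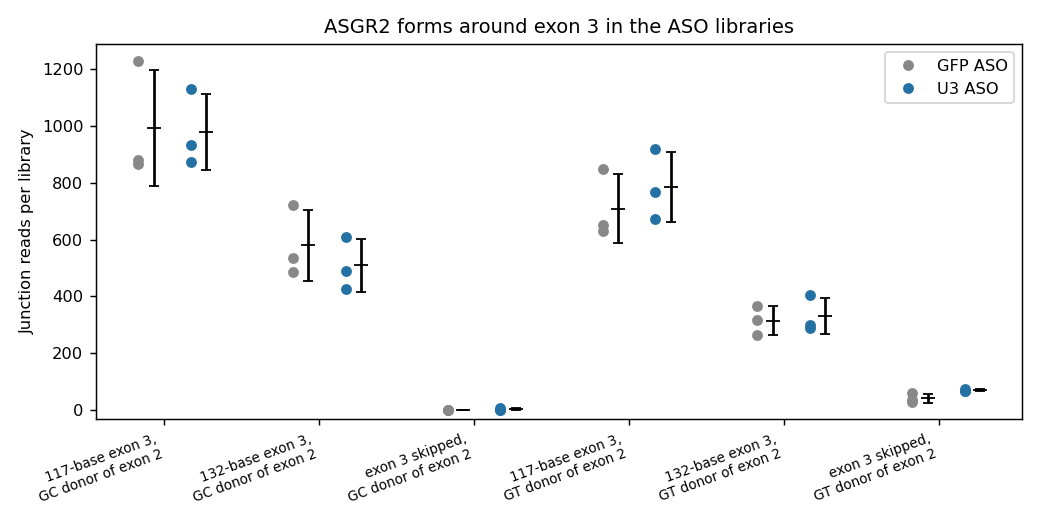
Junction reads per library for ASGR2 exon 3 in the U3 table, by the GC or GT donor of exon 2 and by form (117 bases, 132 bases or skipped), in GFP ASO (grey) and U3 ASO (blue). Points are libraries and marks with bars are mean and SD (n = 3); skipping reads were 0 to 9 from the GC donor and 30 to 73 from the GT donor.

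The choice between both exon 2 donors was looked at after these values had been seen. Inclusion reads of the 117-base form from the GC donor were 138%, 135% and 145% of those from the GT donor in GFP ASO and 122%, 130% and 123% in U3 ASO. The GFP ASO libraries were all higher, with means of 139% ± 4.82 and 125% ± 4.19 (SD, n = 3 each). The exact two-sided permutation p was 0.1, the smallest that 3 against 3 libraries allow. Inclusion reads of the 132-base form were 44.7% ± 4.94 of those of the 117-base form in GFP ASO and 42.1% ± 3.83 in U3 ASO from the GT donor (exact p = 0.6), and 58.5% ± 3.25 and 52.0% ± 5.68 from the GC donor (exact p = 0.2). With siFUBP1 this percentage was 35.0 ± 5.32 against 45.6 ± 14.4 in siCtrl2, overlapping. Each such percentage includes reads that both forms share, which pulls it towards 100%.

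The remaining ASGR1 and ASGR2 exons in the U3 table were nearly always included. ASGR1 exon 5 had inclusion of 0.959 ± 0.0105 in GFP ASO and 0.947 ± 0.0137 in U3 ASO, a change of -0.0113 (adjusted p = 0.857 in the quasi-binomial fit). ASGR1 exon 2, which holds the start codon, had 1 skipping read in all U3 ASO libraries and none in GFP ASO. ASGR1 exon 6 had 6 skipping reads, all in U3 ASO library 3. ASGR2 exon 6 had 0 to 6 skipping reads per library and inclusion of 0.998 ± 0.00311 and 0.997 ± 0.00299.

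Junction reads of ASGR1 were lower in U3 ASO than in GFP ASO. They were 295, 306 and 303 junction RPM in GFP ASO and 282, 254 and 249 in U3 ASO, with no overlap. The means were 301 ± 6.06 and 262 ± 17.9, 86.8% of control (exact two-sided permutation p = 0.1, the smallest possible), and 39.5% of events had groups without overlap on this measure. The median event of the table stood at 120% of control (0.26 on the log2 scale) on this scaling. With median-of-ratios scaling, ASGR1 stood at 73.0% and the median event at 101%. For ASGR2, from reads around exon 6, the means were 126 ± 16.5 and 118 ± 4.36 junction RPM, 93.5% of control with overlap (exact p = 0.6). Without GFP ASO library 1, ASGR2 stood at 101%. In these bulk libraries, fewer cells expressing a gene and less RNA per cell cannot be told apart.

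**Figure D4:**
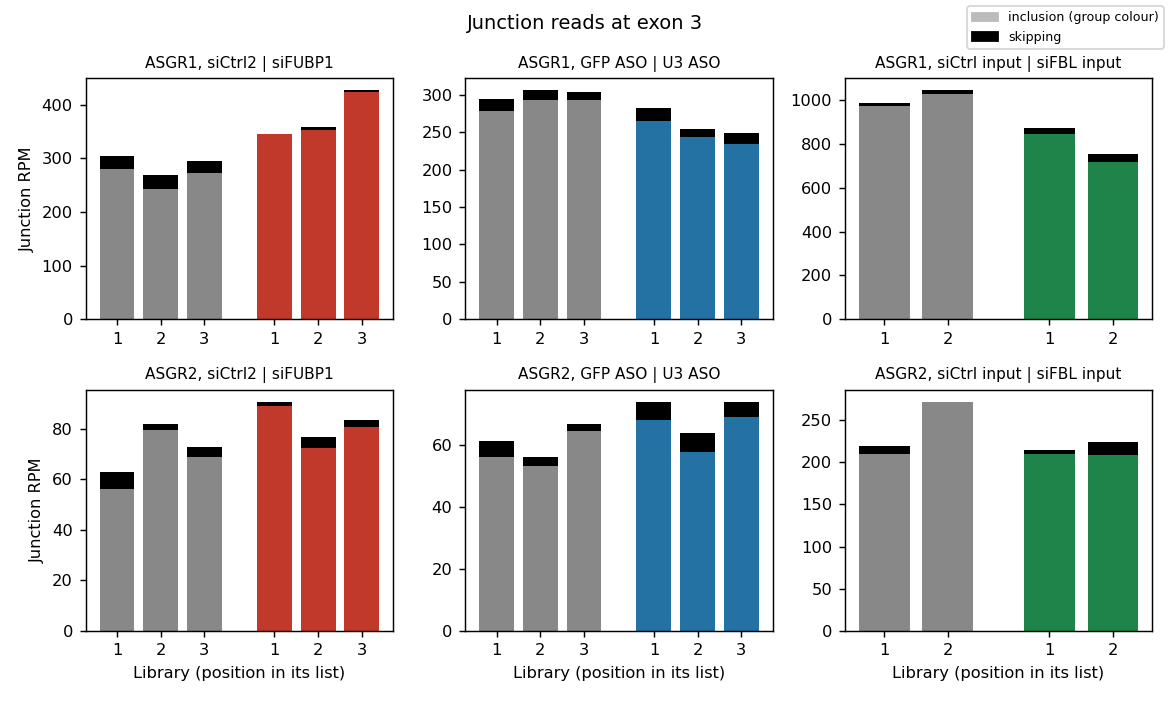
Inclusion reads (group colour) and skipping reads (black, stacked on top) in junction RPM at exon 3 of ASGR1 (top) and at the 117-base exon 3 of ASGR2 with the GT donor of exon 2 (bottom), 1 bar per library in the order of the lists. Controls are grey and the vertical axes differ between panels; the black segments of ASGR1 are 22.0 to 25.5 junction RPM in siCtrl2 and 1.12 to 7.23 in siFUBP1.

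FBL depletion was examined in the input libraries, where each group has 2. ASGR1 exon 3 had 1109 and 937 inclusion reads with 17 and 16 skipping reads in siCtrl input, and 804 and 709 with 25 and 33 in siFBL input. Inclusion was 0.973 and 0.970 against 0.947 and 0.923, with both siFBL libraries below both siCtrl libraries. The means were 0.972 ± 0.00208 and 0.935 ± 0.0171 (SD, n = 2 each). The change of -0.0365 did not pass the test (unadjusted p = 0.154, adjusted p = 0.914, quasi-binomial fit over 5218 events), and 13.8% of events of that table had groups without overlap. Skipping reads were 14.9 and 17.6 junction RPM in siCtrl input and 26.3 and 33.4 in siFBL input. The siFUBP1 change of the same exon had the opposite sign, and a difference between the contrasts was not tested.

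ASGR2 exon 3 could not be separated between siCtrl and siFBL input. The 117-base form had 240 and 247 inclusion reads with 11 and 1 skipping reads in siCtrl input, and 200 and 206 with 4 and 15 in siFBL input. Inclusion was 0.924 and 0.993 against 0.965 and 0.885, a change of -0.0334 between means with overlap (adjusted p = 0.914 in the quasi-binomial fit). The 132-base form had inclusion of 0.804 and 0.982 against 0.946 and 0.797 (change -0.0217, adjusted p = 0.936). Leaving out siCtrl input library 2 or siFBL input library 2 turned the sign of both, to 0.000878 and 0.00693 for the 117-base form and to 0.0674 and 0.0526 for the 132-base form. The 132-base form had 35.4% and 41.7% of the inclusion reads of the 117-base form in siCtrl input and 65.5% and 53.9% in siFBL input, without overlap (exact p = 0.333, the smallest that 2 against 2 allow). ASGR1 exon 5 had inclusion of 0.948 and 1 against 0.984 and 0.931 (change -0.0166, adjusted p = 0.914), and its sign turned without siCtrl input library 2 (0.00951) or siFBL input library 2 (0.00975). Of the 4 ASGR1 and ASGR2 events of siFBL input against siCtrl input, 0 were called by the quasi-binomial test, by which 0% of the whole table was called (0 of 5218). At an unadjusted p under 0.05 the table had 70 events by that test and 244 by limma, which also called 0. Adjusted p of the 4 events ranged from 0.892 to 1 over the settings tried.

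Junction reads of ASGR1 were 986 and 1046 junction RPM in siCtrl input and 871 and 752 in siFBL input. The means were 1016 ± 42.8 and 812 ± 84.7, 79.9% of control without overlap, as in 42.7% of events (exact p = 0.333, the smallest possible). The median event stood at 88.3% of control on this scaling, and with median-of-ratios scaling ASGR1 stood at 89.7%. ASGR2 was at 246 ± 37.2 and 219 ± 6.68 junction RPM, 89.1% of control with overlap (exact p = 0.667). Levels in junction RPM are not comparable between the 3 tables, which list different events.

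**Figure D5:**
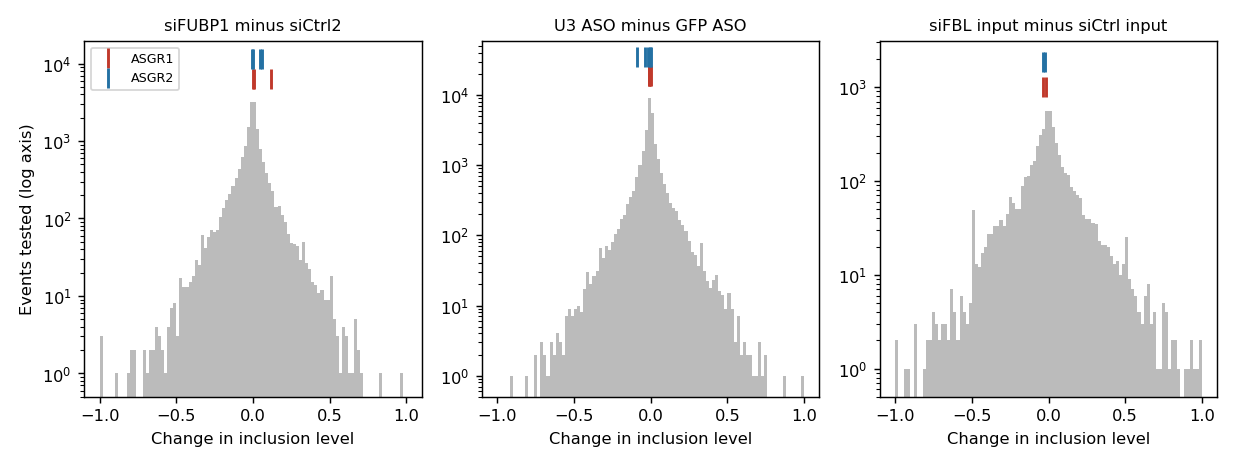
Number of tested events (log axis) by change in inclusion level, depletion minus control, in the siFUBP1, U3 and FBL tables, with vertical ticks above for ASGR1 (red) and ASGR2 (blue) events. The ASGR1 tick farthest right in the siFUBP1 panel is exon 3, at 0.119, and the ASGR2 tick farthest left in the U3 panel is the 132-base exon 3, at -0.0881.

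In the RIP table, the authors' mean normalized count of ASGR1 was 8410 in siCtrl and 7556 in siFBL cells. These lay above 96.5% and 96.6% of the genes with a count above 0. For ASGR2 it was 15490 and 17372, above 98.6% and 98.9% of such genes. The mean may pool FUBP1 RIP with input libraries and is then no plain measure of abundance in the cells. The 2 conditions do not share a scale, the counts are not per length, and no library value or error stood behind them, so neither genes nor conditions are compared on them.

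Exons with a pattern like that of ASGR1 exon 3 were looked for among 2524 events, all those listed in all 3 tables with at least 20 reads per library and a range of at least 0.05. Likeness was Pearson's r between inclusion levels over the 16 libraries, each taken minus the control mean of its table. The highest values were for exons of FN1 (r = 0.903), NUBP2 (r = 0.876), HYAL1 (r = 0.863), AIG1 (r = 0.860) and MKNK2 (r = 0.837). FN1 encodes fibronectin, HYAL1 a hyaluronidase and MKNK2 a kinase of the translation factor eIF4E. The FN1 exon (chr2:215392931-215393203, minus strand) had differences from control of 0.0659 with siFUBP1, -0.0262 with U3 ASO and -0.0120 with siFBL, against 0.119, -0.0141 and -0.0365 for ASGR1 exon 3. The other leading exons had the sign of ASGR1 exon 3 with siFUBP1 but differed from it elsewhere. With U3 ASO, NUBP2 stood at 0.0294 and MKNK2 at 0.00567, and with siFBL, HYAL1 stood at 0.0362 and AIG1 at 0.0103, all above control. The median r was 0.0243, and 9.59% of events had r above 0.5. ASGR2 exon 3 had r of 0.555 (117 bases) and 0.394 (132 bases), and ASGR1 exon 5 0.429. These values are a description over libraries that share tables and controls, and the leading exons were picked for their r.

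Genes around the receptor were counted from 4 lists. Of 19 other endocytic receptors of hepatocytes, 14 had tested events with siFUBP1, 15 with U3 ASO and 12 with siFBL, which came to 45, 74 and 26 events. Of 10 other C-type lectins, 1, 3 and 1 had tested events (2, 9 and 1 events). Of 34 genes of the clathrin coat and its adaptors these were 23, 28 and 8 (68, 134 and 15 events). Of 24 genes that build or remove sialic acid and galactose ends of glycans they were 11, 16 and 6 (25, 36 and 7 events). In each list and contrast 0 events were called by the quasi-binomial test, which called 0.197%, 0.219% and 0% of all events. Limma also called 0 in each list. It called only 2 of 16213, 0 of 30110 and 0 of 5218 events in all, so its result cannot set the lists apart. At an unadjusted p under 0.05 there were 2, 0, 4 and 1 events in the 4 lists with siFUBP1, 6, 0, 4 and 1 with U3 ASO, and 0 in each with siFBL. Over all events, 4.32%, 3.75% and 1.34% had such a p. The median change with siFUBP1 was -0.00201 for the receptors, -0.0116 for the 2 lectin events, -0.00582 for the clathrin list and 0.00319 for the glycan list, against -0.00139 over all events. With U3 ASO the medians were -0.00266, -0.0244, -0.00500 and -0.000751 against -0.00355. With siFBL they were -0.0292, 0.0426 and 0.103 for the receptors, the clathrin list and the glycan list (7 events), against -0.00326 over all events. The single lectin event changed by -0.227.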

How the data were processed

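The authors trimmed reads with Cutadapt, aligned them to hg38 with HISAT2 and counted skipped exon events with rMATS from reads across splice junctions. Tool versions and the annotation release are not given in the sources used here. The deposited tables held, per event, lists of whole-number inclusion and skipping junction read counts with 1 entry per library (unit other, since they are lists) and the effective length of each form. The lists carry no replicate numbers, so a library is named by its position. The methods call the replicates of RNA-seq and of RIP-seq, whose input served for splicing after FBL depletion, biological. The 6 columns of inclusion levels were not used, since levels were recomputed. Columns with the authors' p-values, false discovery rates, inclusion differences and RIP fold changes were not used. The mean normalized count of the RIP table, a score made by the authors with DESeq2, was copied. Which libraries stood behind it, input, RIP or both, was not settled here.

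Events that averaged 10 or more junction reads in a library were fitted by a quasi-binomial model in R 4.3.3, with dispersion moderated by limma 3.58.1 (squeezeVar, prior trend on the rank of the information, reads times inclusion share times skipping share, from events with information of at least 5), a two-sided F test and Benjamini-Hochberg adjustment over all events. Events were called at an adjusted p under 0.1. The prior had infinite degrees of freedom, so events shared the spread along the trend and an event's own spread did not enter. The fit was tested on simulated data with 200 changed events per table. It recovered 70% of them for siFUBP1, 89% for U3 and 58% for FBL, with 1, 1 and 0 false calls. The simulated shifts were larger than any change of an ASGR1 or ASGR2 event, so the recovery of changes as small as theirs was not tested. The simulated spread was near that of the siFUBP1 table (median dispersion 5.85) and below that of the FBL table (13.3). Levels are inclusion plus skipping reads at the event of a gene with the most reads, per 1e+06 junction reads of its table (junction RPM), tested by exact permutation (SciPy 1.17.1). Depth ran from 910779 to 13321799 junction reads per library; reads carry no stated molecular identifiers, so limits cover counting error only. Alternatives were limma on log2 odds (0.5 added to each count), another prior trend, a minimum of 20 reads or none, unscaled shares, other scalings and leaving out each library. Sequences and exons came from hg38 and GENCODE release 44, and hydropathy and identity from the translated transcripts (Biopython 1.88). All events of both genes are named, every called event of the 4 lists would be, and likeness named the 5 events of other genes with the highest r. The genes, lists and tests were chosen with earlier results of these data known.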

Additional observations from a re-analysis of the deposited data

How the results depend on the processing

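Of the 287 recomputed values for ASGR1, ASGR2 and the lists, 273 were counted as unchanged. For inclusion in U3 ASO and siFBL input this meant no change of sign and the same side of the threshold. For junction reads and for inclusion in siFUBP1 it meant no change of sign and a move smaller than the spread between libraries. Exact p-values of junction reads were not recomputed, and a change that became 0 counted as unchanged. Another 4 moved by more than the spread between libraries, and 10 changed sign. Many of the 273 could not have differed. The change in inclusion does not depend on the fit, the prior trend or the minimum of reads, so these settings returned the same change. With siFUBP1 nothing else was compared. Counts of called list events were 0 under every setting. The 273 thus overstate how far the results were put to the test. The siFUBP1 values of both genes had no threshold, so only direction and size were compared there. With median-of-ratios scaling, junction reads stood at 73.0% of control for ASGR1 and 78.6% for ASGR2 in U3 ASO, and at 89.7% for ASGR1 in siFBL input. The siFUBP1 change of ASGR1 exon 3 was 0.0717 without length scaling and 0.110 to 0.127 when a library was left out. The following changed sign when a library was left out, and the cause was not tested. ASGR2 junction reads in U3 ASO ranged from 89.1% to 101% of control. In siFUBP1, the change of ASGR2 exon 6 ranged from -0.00606 to 0.00345 and that of the 132-base exon 3 from -0.0359 to 0.110. In U3 ASO, ASGR2 exon 6 ranged from -0.00310 to 0.000121. In siFBL input, ASGR1 exon 5 ranged from -0.0429 to 0.00975, the 132-base ASGR2 exon 3 from -0.111 to 0.0674 and its 117-base form from -0.0736 to 0.00693. Over all events, calls numbered 32 in the quasi-binomial fit and 2 by limma for siFUBP1, 66 and 0 for U3, and 0 by both for siFBL, and they ranged from 16 to 30 for siFUBP1 and from 32 to 59 for U3 when a library was left out. No ASGR1 or ASGR2 event was called in U3 ASO or siFBL input under any setting tried. No paired analysis was possible because the lists of reads carry no replicate numbers, so the planned replicate block was not run. Few skipping reads limit ASGR2 exon 3 and every exon near full inclusion, and the FBL contrast has 2 libraries per group and the fewest reads.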
